A study of Mus musculus with 16 samples.

Results

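The regions described here are peaks of H3K4me1 that were called in pancreatic β cells of old mice without an overlapping call in young mice. A member is a peak of the old H3K4me1 list on an autosome that overlapped, by 1 bp or more, neither a peak of the young H3K4me1 list nor a region of the young H3K27ac list. They numbered 20224 of the 36011 autosomal old peaks, or 56.2%, and of 113498 H3K4me1 peaks in both lists. Another 11141 old peaks (30.9%) overlapped a young H3K4me1 peak and no H3K27ac, and 4646 (12.9%) touched young H3K27ac. Members made up 52.6 to 59.4% of old peaks on each autosome, and 131 further old-only peaks on chromosome X were left out by the rule.

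H3K4me1 marks enhancers, including those that are primed but silent, and the edges of promoters. H3K27ac marks the enhancers and promoters that are active. H3K27me3 is deposited by Polycomb repressive complex 2 and covers silent developmental genes, often over CpG-rich starts that carry little DNA methylation. CpG methylation is high over most of the mouse genome and dips where transcription factors bind, so a distal enhancer usually appears as a local trough. β cells are the insulin-secreting cells of the pancreatic islets.

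All cells were β cells sorted from islets. RNA samples carried the strain label MIP-GFP/Bl6, a fluorescent reporter line driven by the insulin promoter, and all others the label C57Bl6. Young mice were 4 to 6 weeks old. Old mice were 15, 16 and 17 months old in the 3 RNA pools and 16 to 18 months by the labels of the chromatin and bisulfite pools, although the design text gives 18 to 22 months for the bisulfite pool. RNA came from 3 old and 2 young pools of 5 to 10 mice, which the design text calls biological replicas. Each chromatin mark and each bisulfite library was used as 1 sample per age. The design text names 2 old H3K27me3 replicas from pools of 4 to 7 mice, and no source used here says whether the old H3K27me3 list joins them. H3K27ac was used in young cells only, so its state at the members in old cells was not analysed here.

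Totals per RNA library were 23559908 to 33562822 counts in old cells and 6377619 and 12892123 in the young libraries, called the shallower and the deeper one here. Summed β-cell markers stood at 331047 to 436613 CPM (counts scaled to library size) in old libraries and 256625 to 314721 in young ones. Markers of other cells were higher in the young libraries. For 4 markers of alpha cells, another islet cell type, the sum was 881 to 1797 CPM in old and 1951 to 31534 in young. For 3 markers of the islet's delta and PP cells it was 126 to 268 and 2437 to 7045. The summed level of 4 stromal markers was 4.22 to 7.23 CPM in old and 180 to 2508 in young, that of 4 endothelial markers 21.9 to 38.9 and 282 to 541, and that of 5 acinar markers 69.2 to 99.1 and 1166 to 1778, with Amy2a5 at no count in old.

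The rule rests on absence from a list, and the lists differed. The old H3K4me1 library had 23133696 tags and an estimated immunoprecipitation efficiency of 6%, and the young one 27179660 tags and 12.45%. The caller kept 36207 of 123859 putative old peaks and 77291 of 253078 putative young peaks. A filter that asks for 4-fold more tags than the surrounding 10000 bp removed 97131 putative young peaks, so young signal at a member cannot be told apart from its removal by that filter. The median score was 12 for members and for old peaks shared with young, and the median tag count was 11 and 12. These values lay close to the caller's tag threshold, which was 9 in both lists. The score quartiles were 10 and 13 for members and 11 and 14 for shared peaks, and 2696 members (13.3%) had a score of 9.

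Most members lay beside a young H3K4me1 peak, not far from one. The median gap was 591.5 bp, where a peak was 120 bp wide in the old list and 126 bp in the young. A young peak lay within 250 bp of 6998 members (34.6%), at over 250 and up to 1000 bp of 4500 (22.3%), at over 1 and up to 10 kb of 4976 (24.6%), and beyond 10 kb of 3750 (18.5%). At the edge of the rule the values ran on without a step. The 999 members with a gap of 1 to 20 bp had a median young methylation of 32.9%, and the 1072 excluded peaks that overlapped a young peak by 1 to 20 bp had 32.6%.

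Few of the members with a called change in methylation sat on a gene start, and the DNA at 3 such starts is shown with the calls at its CpGs. There were 5 called members, in the sense given with the methylation results, with a centre between 250 bp before and 50 bp after the start. RefSeq start sequences (build GRCm38.p6) could be matched by CpG positions to 4 of them: Znrf1, Hkdc1, 4931406H21Rik and Ddc. Hkdc1, a hexokinase family gene, is shown because its start holds the most CpGs, Znrf1, a ubiquitin ligase gene, for its loss and the transcript 4931406H21Rik for its gain. Each sequence is 300 bases, 5′ to 3′ on the strand of the gene, and capitals mark the CpGs. The window behind a member's call is wider than the sequence, so most of its CpGs can lie outside the letters shown.
Hkdc1 (GRCm38.p6, chr10:62422408-62422707, minus strand): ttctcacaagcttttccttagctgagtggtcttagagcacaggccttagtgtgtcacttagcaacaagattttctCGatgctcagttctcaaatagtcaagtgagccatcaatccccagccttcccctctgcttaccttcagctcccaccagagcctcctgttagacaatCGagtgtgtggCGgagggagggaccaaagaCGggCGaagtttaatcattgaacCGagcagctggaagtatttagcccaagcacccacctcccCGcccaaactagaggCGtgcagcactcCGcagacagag
Znrf1 (GRCm38.p6, chr8:111538093-111538392, plus strand): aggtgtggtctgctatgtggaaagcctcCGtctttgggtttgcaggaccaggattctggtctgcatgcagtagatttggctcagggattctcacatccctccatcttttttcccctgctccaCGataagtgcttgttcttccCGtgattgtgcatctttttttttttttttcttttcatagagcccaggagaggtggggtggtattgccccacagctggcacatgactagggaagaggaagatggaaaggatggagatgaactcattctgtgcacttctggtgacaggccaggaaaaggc
4931406H21Rik (GRCm38.p6, chr14:25586554-25586853, plus strand): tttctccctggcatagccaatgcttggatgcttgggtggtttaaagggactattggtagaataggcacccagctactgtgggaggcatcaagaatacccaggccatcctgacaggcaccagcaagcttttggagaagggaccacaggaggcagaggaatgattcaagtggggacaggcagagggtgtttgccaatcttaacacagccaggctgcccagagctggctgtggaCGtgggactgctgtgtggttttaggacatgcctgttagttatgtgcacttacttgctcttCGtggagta
At Hkdc1, the last 2 CpGs of the sequence differed most between the libraries. The CpG 39 bp after the start was methylated in 12 of 18 young calls and 0 of 27 old calls, and that at 27 bp in 7 of 18 and 2 of 26. The one at 12 bp had 2 of 13 young calls and 2 of 22 old calls. Over the 19 CpGs of the window around the member (mm9 chromosome 10, 61885391 to 61885511, 246 bp before the start, under young H3K27me3) methylation was 51.3% in young and 27.4% in old (Fisher's exact test, adjusted p = 1.91e-08).
At Znrf1, the CpG 222 bp before the start went from 6 of 11 methylated calls in young to 0 of 23 in old. The other 2 CpGs had fewer than 5 old calls. The member there (mm9 chromosome 8, 114062000 to 114062120) stood at 43.9% in young and 9.38% in old over 9 CpGs (adjusted p = 4.74e-13).
At 4931406H21Rik, the CpG 19 bp before the start went the other way, from 8 of 27 to 48 of 53 methylated calls, while the CpG 41 bp after it was high in both, with 23 of 23 and 28 of 35. The member there (mm9 chromosome 14, 26406093 to 26406213) was at 59.3% in young and 83.1% in old (adjusted p = 1.45e-12). At Ddc, which encodes the enzyme that makes dopamine and serotonin, the member (mm9 chromosome 11, 11798269 to 11798389) was at 47.2% in young and 77.8% in old (adjusted p = 5.23e-11), whereas the CpG 12 bp after its start had no methylated call in 17 young and 5 old calls. None of the 3 genes with a fitted change had an RNA call (edgeR, adjusted p = 0.23 for Znrf1, 0.34 for 4931406H21Rik, 0.128 for Ddc), and Hkdc1 was below the filter on low counts.

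Methylation was compared from summed calls at CpGs within 500 bp of the peak centre that had 5 to 100 reads in both libraries. At least 3 such CpGs were present in 18598 members. With 1 bisulfite library per age, each test compares these libraries and not the ages. Members were already hypomethylated in the young library. The median member was at 50% in young and 44.7% in old. At 1500 to 2500 bp from the centre the medians were 84.6% and 85.2%. These flank values weight each CpG equally and are not summed calls, so the 2 measures differ. Of tested members, 49.8% were below 50% methylation in the young library. Old peaks shared with young lay lower, at 27.8% and 23.5%, with 71.5% of them under 50% in young.

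**Figure D1:**
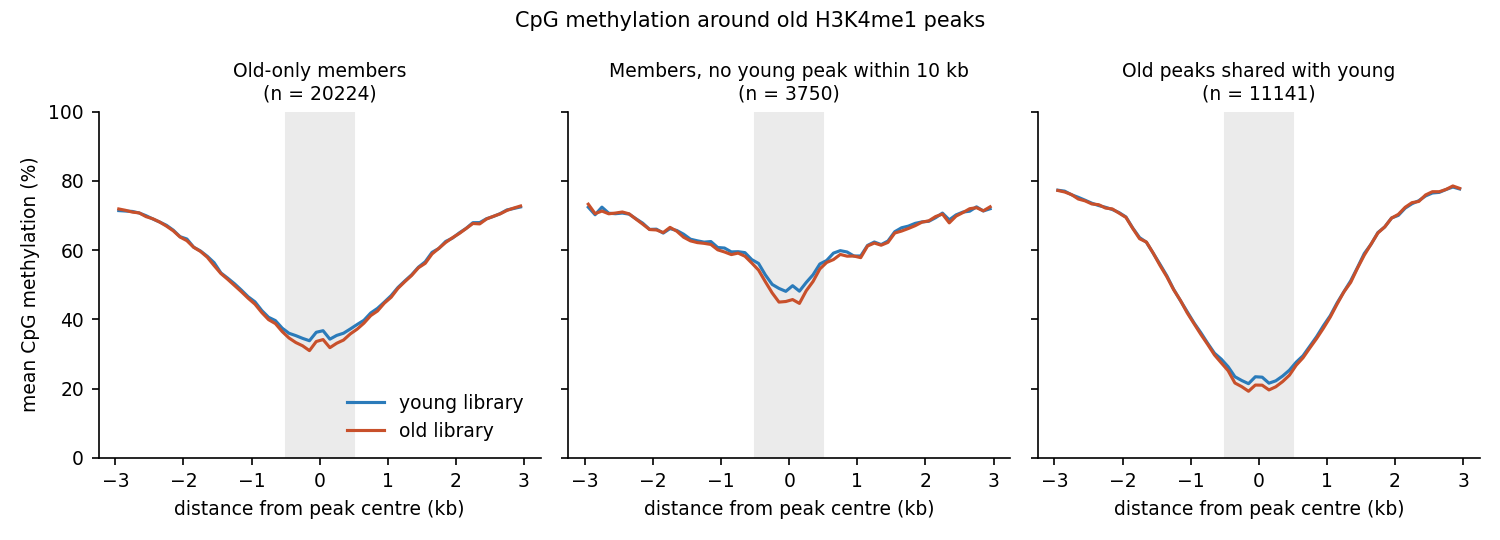
Mean CpG methylation (%, each CpG weighted equally) in 100 bp bins against the distance from the peak centre (kb), young library in blue and old in red, for all members, members with no young peak within 10 kb and old peaks shared with young; grey marks the 500 bp on either side. All 3 sets dip at the centre in the young library, and the old line runs below the young one there and close to it in the flanks.

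The trough at the members was present in both libraries and slightly deeper in the old one. In the bin just before the centre the mean over CpGs was 36.3% in young and 33.6% in old, and 2950 bp upstream it was 71.4% and 71.9%. For members with no young peak within 10 kb the same bins gave 48.1% and 45.1% at the centre, and 72.4% and 73.2% upstream. When calls were summed so that deeply covered CpGs counted more, the centre of all members stood at 27.8% and 27.6%, and the upstream bin at 59.9% and 63.7%. Genome-wide, the mean of CpG levels was 75.2% in young and 75.04% in old, while summed calls gave 67.0% and 69.1%.

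Per member, the median difference between old and young was -1.87 percentage points, and -1.81 over all tested old peaks. With each CpG weighted equally, 61.0% of tested members were lower in old, as were 61.9% of all tested old peaks. A member was called when Fisher's exact test, adjusted over the 33814 tested old peaks, gave a p under 0.05 and the difference was at least 20 points. By this rule 1463 members (7.87%) were lower in the old library, where 7.23% of all tested old peaks were. Another 395 (2.12%) were higher, where 1.76% of all tested old peaks were. Both shares were near the background. Of the called members, 854 of the lower and 179 of the higher ones also differed by 20 points when CpGs were weighted equally. The called members were CpG-poor, with medians of 7 and 6 CpGs against 10 over all members. Windows of 2721 members (13.5%) shared bases with another member's window, so these are not independent.

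**Figure D2:**
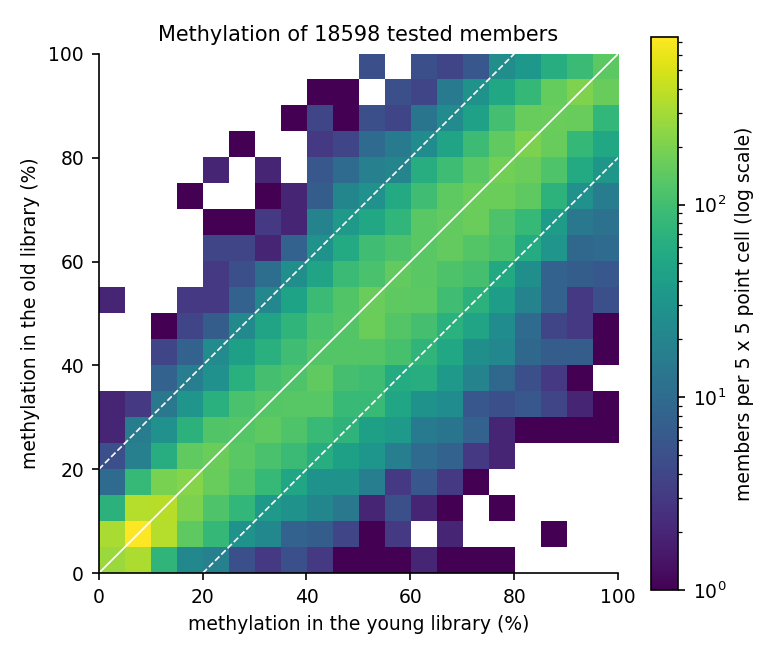
Methylation (%) of the 18598 tested members in the young (x axis) and the old library (y axis), as members per cell of 5 by 5 points on a log colour scale; the solid line marks equal values and the dashed lines a difference of 20 points. Members spread along the whole diagonal with a dense corner under 20%, and more of them lie under the lower dashed line than over the upper one.

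Members did not form one methylation class. In the young library 12% of them were below 10%, 6.41% were at 90% or more, and each step of 10 points between held 8.45 to 11.4%. In the old library 13.2% were below 10% and 5.85% at 90% or more.

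The 8 named losses of methylation lay 1246 to 113701 bp from the nearest gene start. Near Camsap2, a gene of a microtubule minus-end protein, the member at chromosome 1, 138251038 to 138251158 (mm9, as all coordinates that follow), 8417 bp before the start, was at 86.0% in young (43 calls) and 7.41% in old (54 calls; adjusted p = 2.98e-14). The member 102900 bp after the start of Dusp10, a phosphatase of stress kinases (chromosome 1, 185961180 to 185961300), was at 89.2% and 26.4%. The other 6, near 4933412E24Rik, Smg6, Ube2e3, Atp8a1, Ogdhl and Tbl1xr1, differed by -61.1 to -52.4 points on 39 to 144 calls. The Smg6 member was the one nearest to a start, 1246 bp into the gene and 435 bp from a young H3K27ac region. All 8 lay outside H3K27me3 regions of either age. Of their nearest genes within 50 kb, Atp8a1, which encodes a phospholipid flippase, rose. It had 268, 223 and 193 CPM in the old libraries and 98.9 and 70.9 CPM in the young ones, a log2 change of 1.43 (SE 0.27, edgeR adjusted p = 0.0206). Without 1 old library at a time its adjusted p was 0.0592 to 0.0892. The member lies 22918 bp into that gene and went from 88.5% to 33.8%.

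Among the named gains, the member in Lass6, a ceramide synthase gene (chromosome 2, 68738615 to 68738735), was at 43.1% in young and 91.6% in old over 13 CpGs. Another 6, near Mtmr10, 4933426M11Rik, Dnajb12, Eepd1, Gm3716 and Bdnf, gained 40.6 to 47.0 points, and none of these 7 lay under H3K27me3.

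The members with the highest scores did not carry these changes. Pisd-ps2 and Pisd-ps3, both pseudogenes with near-identical copies elsewhere, held members with scores of 98 and 78, where the input library also had 39.4 and 31.2 scaled tags. The member 2024 bp into Cbln1, a synaptic protein gene (score 27, chromosome 8, 89994407 to 89994527), held 70 CpGs at 18.1% in young and 16.4% in old, and the member 2626 bp into Kcnj9, a potassium channel gene, 57 CpGs at 5.70% and 5.75%. The member near Rap1gap2 was at 82.4% and 67.1%, short of 20 points.

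Methylation was higher, and gene starts fewer, the farther a member lay from a young peak. From the nearest to the farthest of the 4 classes of gap, the median young methylation was 34.3%, 50%, 62.2% and 62.4%, and the old medians were 29.3%, 44.6%, 58.1% and 58.2%. The share within 1 kb of a gene start was 25.9%, 15.5%, 9.67% and 4.96%. The nearest class was the closest to shared peaks, which had a young median of 27.8% and of which 29.8% lay at a start. Called losses made up 7.11%, 8.20%, 7.85% and 9.03% of the tested members of these classes.

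**Figure D3:**
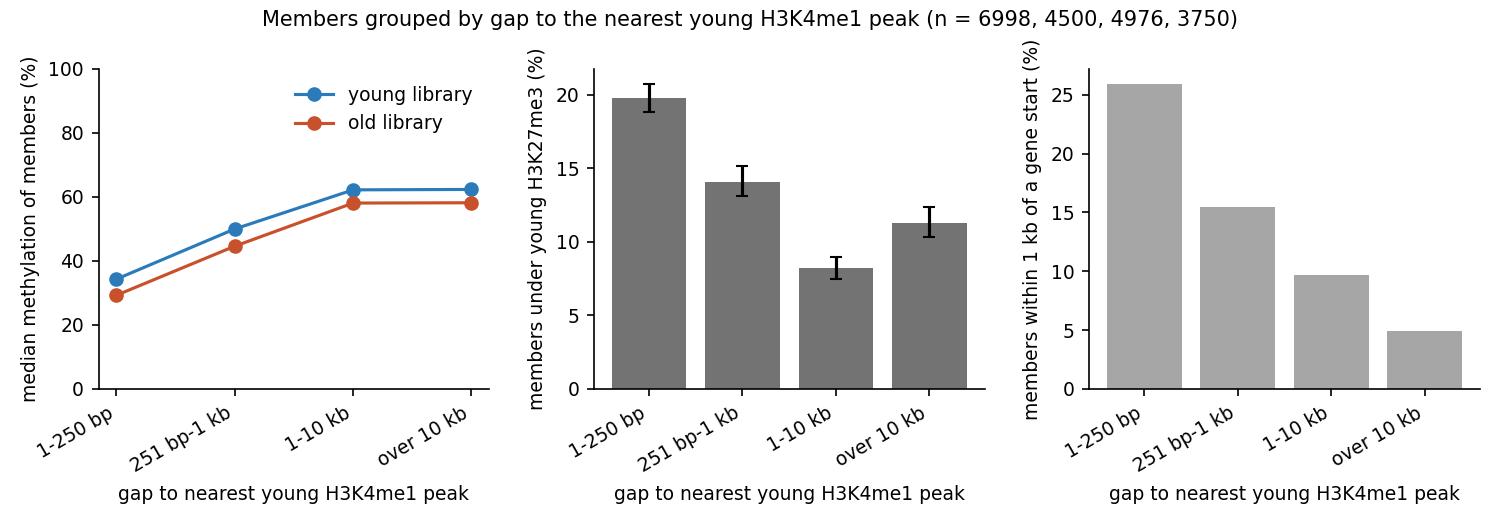
Members grouped by the gap to the nearest young H3K4me1 peak (6998, 4500, 4976 and 3750 members): median methylation (%) in the young and old library, share (%) under a young H3K27me3 region with exact 95% binomial intervals, and share (%) within 1 kb of a gene start. Methylation climbs from 34.3 to 62.4% with the gap in the young library, while the share at gene starts drops from 25.9 to 4.96%.

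Members at gene starts were CpG-rich and little methylated in both libraries. The 3172 members within 1 kb of a start had a median of 10.4% in young and 10.3% in old over 32 CpGs, and 1.36% of those tested were lower. The 6444 members with no start within 50 kb had 60.5% and 54.7% over 7 CpGs, and 10.8% of those tested were lower. Members at 1 to 10 kb and at 10 to 50 kb lay between, at 48.2% and 58.8% in young. Centres fell more often inside the gene than before it. At over 1 and up to 5 kb from the nearest start, 2366 members were downstream and 722 upstream, and for shared peaks the numbers were 1113 and 341. In all, 61.7% of members lay within a transcript.

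Polycomb-marked members were a minority with lower methylation than the rest. A young H3K27me3 region covered 2850 members (14.1%, exact 95% binomial interval 13.6 to 14.6%), against 15.3% of all old peaks, 23.3% of shared peaks and 1.36% of old peaks with young H3K27ac. These intervals cover counting error only, and the regions were broad, with a median width of 9000 bp over 451.8 Mb in young and 649.2 Mb in old. Members under young H3K27me3 had a median methylation of 19.95% in young and 17.5% in old over 23 CpGs, and members without it 54.3% and 49.1% over 9 CpGs. A start lay within 1 kb of 30.3% of the marked members and 13.3% of the others.

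By both ages, 2240 members were under H3K27me3 in young and old, 610 in the young list only, 2572 in the old list only and 14802 in neither. Young methylation was 16.3%, 34.1%, 46.2% and 55.6% in that order. The share of members under H3K27me3 was 14.1% with the young list and 23.8% with the old list, and the old list, which may join 2 replicas, covers more of the genome.

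Most members near developmental transcription factor genes were marked. Of the 53 members nearest to a gene of that list, 45 were under young H3K27me3. An example is the member 350 bp before the start of Gata4, an endoderm factor (chromosome 14, 63864387 to 63864507), which held 69 CpGs at 9.86% methylation in young and 13.4% in old. Of 35 such genes near members, 19 passed the filter on low counts. None of these rose and 2 fell, where 3.17% of all tested genes rose and 7.93% fell. Both counts are near the background. The 2 that fell were Foxc1 and Ebf2, at 9.21 and 7.53 and at 2.08 and 2.32 CPM in young and under 0.5 CPM in each old library. The Foxc1 member was not under young H3K27me3, and of the 2 Ebf2 members only the one 834 bp into the gene was. Without 1 old library at a time the adjusted p was 0.0618 to 0.107 for Foxc1 and 0.0882 to 0.126 for Ebf2, and without the shallower or the deeper young library it was 0.0602 or 0.0681 for Ebf2.

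RNA was compared between the 3 old and 2 young libraries with edgeR's quasi-likelihood test, adjusted over 15544 genes, and log2 changes are old over young. Here "rose" and "fell" stand for an adjusted p under 0.05. The nearest gene within 50 kb was taken for 68.1% of members, which gave 8550 genes, of which 7366 passed the filter on low counts. Of these, 268 rose (3.64%), where 3.17% of all tested genes rose, and 500 fell (6.79%), where 7.93% of all tested genes fell. Both shares were near the background, and the median log2 change was 0.03 against -0.05 over all genes. The balance depends on single libraries. Without old library 1, 2 or 3, 15, 19 or 49 of the nearest genes rose and 113, 151 or 113 fell, and without the shallower or the deeper young library 676 or 1271 rose and 866 or 1104 fell. These last fits assume that the lone young library varies as much as old ones do.

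**Figure D4:**
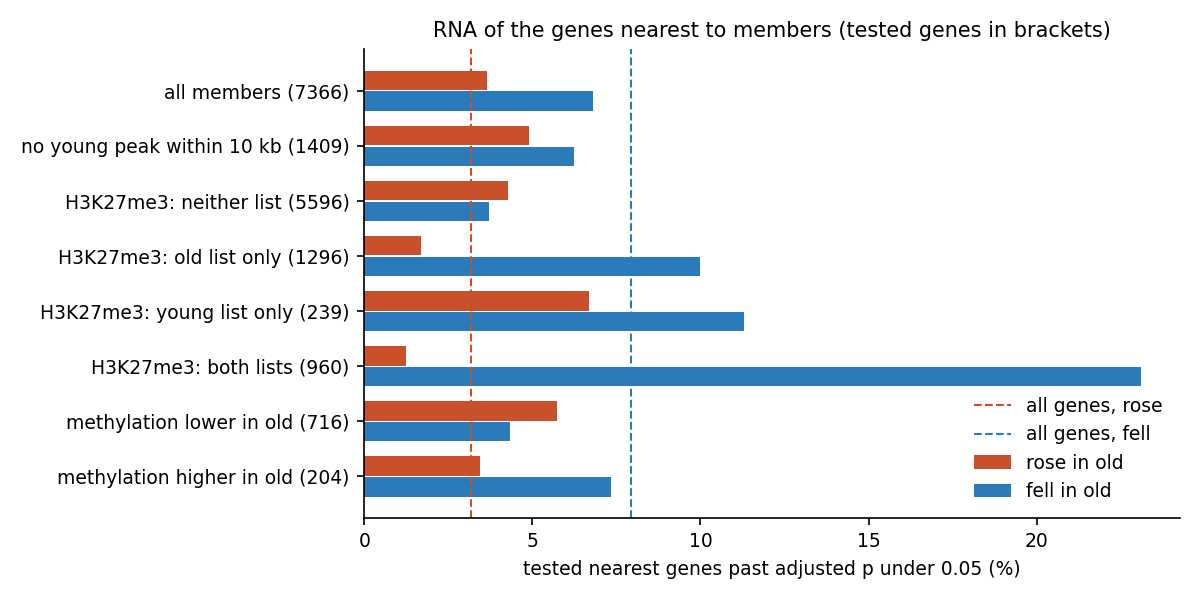
Share (%) of tested nearest genes that rose (red) or fell (blue) in old at adjusted p under 0.05, for all members and for members by H3K27me3 and by methylation, with the number of tested genes in brackets; dashed lines give the shares over all tested genes (3.17 and 7.93%). Genes near members under H3K27me3 in both lists stand out with 23.1% fallen.

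Genes near members that were far from young peaks, or free of H3K27me3, rose in a slightly larger share. With no young peak within 10 kb, 4.90% of 1409 tested genes rose and 6.25% fell. With H3K27me3 in neither list, 4.27% rose and 3.70% fell over 5596 genes. Near members with lower methylation in old, 5.73% of 716 tested genes rose and 4.33% fell, and near members with higher methylation 3.43% of 204 rose and 7.35% fell. The number of members per gene made little difference, with 3.62% rising among genes with 1 member and 3.92% among those with 3 or more. These differences between subsets were not tested.

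More of the genes near Polycomb-marked members fell than of all tested genes. Of 1178 tested genes nearest to a member under young H3K27me3, 243 fell (20.6%) and 27 rose (2.29%), with a median log2 change of -1.67. Another 497 such genes did not pass the filter. A gene read in the young libraries only could pass the filter through them, so the share is over genes that could be read and not over all. Near members marked in both lists 23.1% of 960 genes fell, and near shared peaks under young H3K27me3 21.4% did. The fallen genes had a median level of 0.44 CPM in old and 18.3 CPM in young, and 160 of the 243 were under 1 CPM in old. Of these 243, 103 were higher in the shallower young library, and 5 were on the lists of other islet, exocrine, endothelial, stromal or immune cells. Each of those lists had only 4 to 8 tested genes near members, so that number could only be small. Without old library 1, 2 or 3, 67, 88 or 63 of the genes near members under young H3K27me3 fell. The markers of stromal, endothelial and acinar cells, whose summed levels are given above, were likewise at a higher level in the young libraries, and their part in these falls was not tested. In bulk samples, fewer cells of a type and less RNA per cell cannot be told apart.

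**Figure D5:**
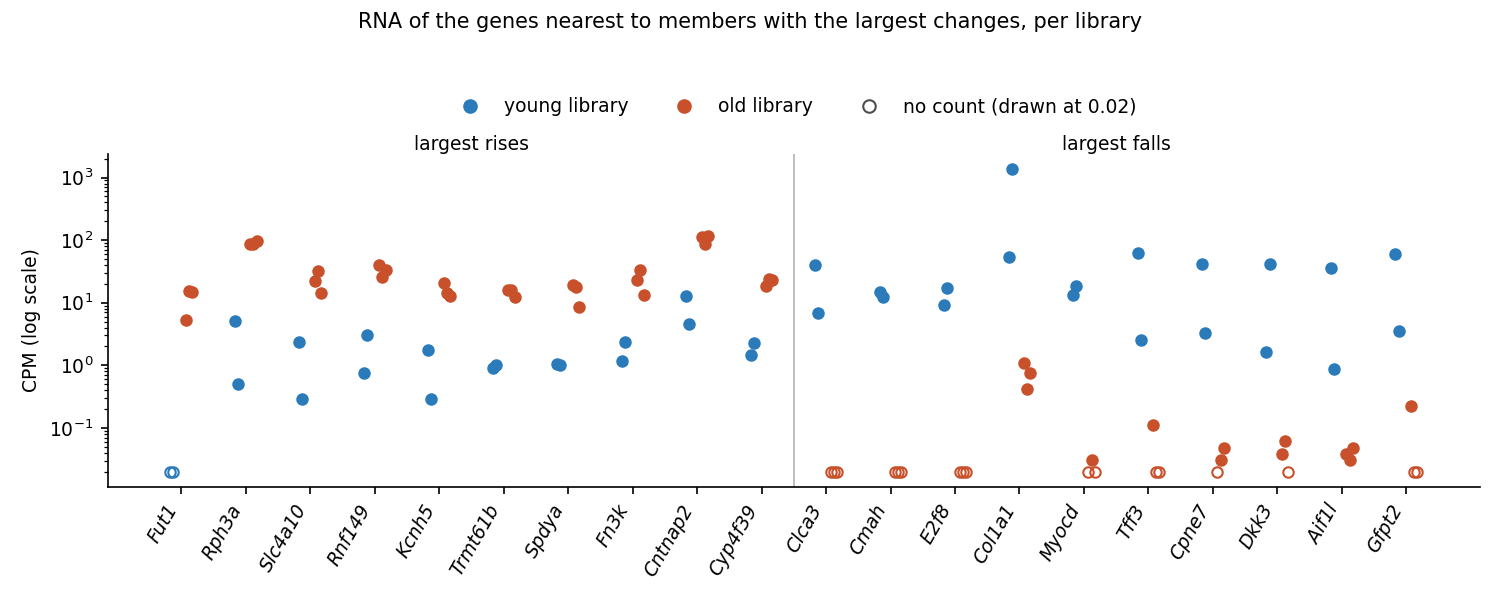
RNA level (CPM, log axis) in each old (red) and young (blue) library for the genes nearest to members that changed most, 10 in each direction; open circles are libraries with no count, drawn at 0.02. Old and young libraries do not overlap for any of them, as the choice of genes required.

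Fut1 and Rph3a led the rises near members. Fut1, which encodes a fucosyltransferase, had 5.31, 15.6 and 15.0 CPM in old and no count in either young library, so it was at least 82.9-fold higher against a floor of 3 counts over both young libraries. Its member lay 186 bp into the gene and under H3K27me3 of both ages. The methylation of this member was 10.0% in young and 24.6% in old, short of the difference required for a call. Rph3a, which encodes the vesicle protein rabphilin, had 6 members within 50 kb. Its RNA was 88.4, 87.8 and 95.6 CPM in old and 5.2 and 0.507 CPM in young, a log2 change of 5.11 (SE 0.84, adjusted p = 0.0134). Of its members, 5 were under young H3K27me3, of which 1 was also under the old mark, and the member 23 bp before its start was at 13.4% in young and 5.54% in old. Without old library 3 the adjusted p was 0.0645 for Rph3a and 0.0672 for Fut1, and without old library 2 it was 0.0524 for Fut1.

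Cntnap2, a neurexin family gene, had 3 members and rose from 12.8 and 4.49 CPM in young to 113, 86.9 and 119 CPM in old (log2 change 3.65, SE 0.50, adjusted p = 0.00736). Slc4a10, a bicarbonate transporter gene, and Kcnh5, a voltage-gated potassium channel gene, rose by log2 changes of 4.19 and 4.01. The Kcnh5 member lies 62 bp into the gene under H3K27me3 of both ages, with 52 CpGs at 4.65% and 4.93%. Rnf149, Trmt61b, Spdya, Fn3k and Cyp4f39 rose by 3.53 to 4.04. Cntnap2 kept its call without any 1 library. Rnf149 lost it without old library 1 (adjusted p = 0.0684) or 3 (0.0643), and Slc4a10, Kcnh5, Trmt61b, Spdya, Fn3k and Cyp4f39 without any 1 of the old libraries, with adjusted p of 0.0509 to 0.138.

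The RNA of Clca3, E2f8 and Cmah was not read at all in old cells. Clca3 had 40.1 and 6.73 CPM in young, at least 471-fold above a floor of 3 counts over the old libraries. E2f8, a repressor of the cell cycle programme with 3 members at 13552 to 29270 bp before its start, had 9.06 and 17.1 CPM in young and was at least 386-fold lower. Cmah, an enzyme of sialic acid synthesis, was at least 349-fold lower. Col1a1, a collagen of stromal cells, had 1.09, 0.425 and 0.763 CPM in old and 54.1 and 1377 CPM in young, so the young libraries differed from each other by far more than the old ones. Myocd, Tff3, Cpne7, Dkk3, Aif1l and Gfpt2 had log2 changes of -9.77 to -8.59. In the last 5 of these, 1 young library held most of the signal, with Aif1l at 35.8 CPM in the shallower and 0.869 in the deeper one and Dkk3 at 1.63 and 41.0. Without old library 3 the adjusted p of Cpne7 was 0.0583. Tff3, Dkk3, Aif1l and Gfpt2 lost their call without any 1 of the old libraries (adjusted p = 0.0502 to 0.0834), and without the shallower young library the adjusted p was 0.0991 for Tff3, 0.257 for Aif1l and 0.101 for Gfpt2.

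Of 43 genes of β-cell function, 26 were nearest to a total of 46 members, and 8 of these 26 rose and none fell, where 3.17% of all tested genes rose and 7.93% fell. DESeq2 called 13 of them as risen, but it also called more of all nearest genes than edgeR did. The number 13 therefore cannot be set against 3.17%. The median log2 change of these 26 genes was 0.83, against -0.05 over all genes. Over the whole list of 43, 11 rose and none fell. Besides Rph3a the risers were Gjd2, Scg2, Scg5, Slc30a8, Iapp, Slc2a2 and Ero1lb. Gjd2, a connexin gene of β-cell coupling, had 174, 201 and 135 CPM in old and 60.7 and 37.6 CPM in young (log2 change 1.79, SE 0.32, adjusted p = 0.0163). Scg2, a granin of secretory granules, had 3107, 3752 and 3521 CPM in old and 1532 and 1264 in young. The count of 8 was 1, 1 or 3 without old library 1, 2 or 3. Without old library 1 or 2 the adjusted p of Gjd2 was 0.0687 or 0.0645, and for Scg2 and Scg5 it was 0.0583 to 0.0729 without any 1 of the old libraries.

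Gjd2 joined a called loss of methylation to a called rise of RNA. Its member, 15153 bp before the start (chromosome 2, 113854448 to 113854568, score 16), was at 72.9% in young and 25% in old on 96 and 72 calls (adjusted p = 8.98e-09). The nearest young H3K4me1 peak was 9397 bp away, but a young H3K27ac region lay 711 bp away. The member 33423 bp into Scg5 (chromosome 2, 113635765 to 113635885), named for the nearest start, that of a gene for a chaperone of prohormone convertase, was at 39.5% and 13.2%. The third called loss of this list was near Snap25, of the fusion machinery, at 95.7% and 72.7%, and the RNA of Snap25 did not pass the test (edgeR adjusted p = 0.321). These 3 losses were among 39 tested members near genes of this list, and no member was called higher. Over all tested old peaks 7.23% were lower, so the count is near the background. The members near Slc2a2, the glucose transporter of β cells, were not called, at 14.1% and 11.3% for the one 14768 bp into the gene.

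Of 31 β-cell transcription factor genes, 20 were nearest to 45 members, 4 of which were called lower and none higher among 42 tested. Over all tested old peaks 7.23% were lower, so the count is near the background. These 4 lay near Foxo1, Nkx2-2, Pdx1 and Tcf7l2. The member 16379 bp into Foxo1 (chromosome 3, 52088578 to 52088698), 48062 bp from the nearest young peak, was at 53.4% in young and 13.3% in old. The member 18792 bp before the start of Nkx2-2, a factor of β-cell identity, was at 55.6% and 11.9%, and that 9322 bp before Pdx1, the master factor of the pancreas, at 44.8% and 23.8%. The RNA of Pdx1 was 122, 106 and 133 CPM in old and 78.0 and 53.1 in young, without overlap but short of the threshold (log2 difference 0.88, adjusted p = 0.0757). All 20 genes were tested for RNA, and 1 rose and 1 fell, where 3.17% of all tested genes rose and 7.93% fell. Esrrg, a nuclear receptor of mature β cells, was the one that rose, and Sox9, a progenitor and duct factor, the one that fell. Esrrg had 27.1, 28.4 and 27.2 CPM in old and 5.50 and 7.89 in young (log2 change 2.03, adjusted p = 0.0287), and both its members were under H3K27me3 at both ages. Without 1 old library at a time its adjusted p was 0.099 to 0.126. Sox9 had 0.0377, 1.76 and 0.0477 CPM in old and 46.9 and 14.7 in young (adjusted p = 0.0438), and 0.107, 0.119 or 0.0572 without old library 1, old library 3 or the shallower young library.

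Some genes of the cell cycle and most tested genes of immature β cells near members fell. Of 24 cell cycle genes near members, 22 were tested, and 5 fell and none rose, where 7.93% of all tested genes fell. The whole list had 8 falls among 34 tested genes. Ccnd1, the cyclin of G1 phase, had 36.2, 34.2 and 35.6 CPM in old and 206 and 173 in young (log2 change -2.42, SE 0.24, adjusted p = 0.00384), and Top2a, needed to separate chromosomes, 1.62, 1.37 and 2 in old and 20.3 and 67.0 in young. The member 81 bp into Top2a was at 3.46% and 2.99% over 54 CpGs. Of the Ccnd1 members, the one 1268 bp before the start was at 6.51% in young and 5.27% in old, and the one 11181 bp after it at 56.2% and 64.3%. Of 7 disallowed or immature β-cell genes near members, 6 were tested and 5 fell, and over the whole list 12 of 19 did. Among them Npy, a neuropeptide of immature β cells, had 1.43, 1.82 and 1.91 CPM in old and 25.8 and 97.5 in young (log2 change -5.16, SE 0.61, adjusted p = 0.00522), and Hk1, the hexokinase of most other tissues, fell by 6.08 on the log2 scale (adjusted p = 0.0118, and 0.0522 without old library 1). The Hk1 member, 348 bp into the gene under H3K27me3 of both ages, was at 14.6% and 9.05% over 64 CpGs.

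Genes of other cell types near members fell or did not pass the test. Falls numbered 2 of 6 genes for other islet cells, 4 of 8 tested for exocrine and duct cells, 5 of 8 for endothelial cells, 4 of 4 for stromal cells and 1 of 6 for immune cells, and none rose, where 7.93% of all tested genes fell. Vwf, an endothelial clotting factor with 2 members, had 0.527, 0.971 and 0.143 CPM in old and 80.3 and 161 in young. Krt19, a keratin of duct cells, had 0.0377, 0.121 and 0.0477 CPM and 31.5 and 15.6.

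Among 26 genes of Polycomb and DNA methylation, 16 were nearest to 35 members. All 16 were tested, and none rose and 1 fell, where 3.17% of all tested genes rose and 7.93% fell. The count of falls is near the background. Uhrf1, which brings the maintenance methyltransferase to newly copied DNA, fell (0.0377, 0.0304 and 0.143 CPM in old, 2.38 and 14.3 in young, adjusted p = 0.0235). Its adjusted p was 0.069 to 0.0905 without 1 old library at a time and 0.114 without the deeper young library. Dnmt3b, a de novo methyltransferase, held 5 members within 23814 bp, with RNA of 25.5, 21.9 and 30.9 CPM in old and 13.2 and 18.2 in young (adjusted p = 0.277). The groups did not overlap for Dnmt3b, but the difference did not pass the test. In Rnf2, a subunit of Polycomb repressive complex 1, 2 members went opposite ways, from 80.9% to 42.7% and from 76.2% to 99.0%, the latter on 21 young calls.

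The genes with the most members showed no called change. Tacc2 and Znrf2 were nearest to 9 members each, and Abr, Ano6 and Pvrl1 to 8 each. Their log2 differences ran from -0.34 to 0.53, with adjusted p from 0.267 to 0.993, and old and young libraries overlapped for all 5.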

How the data were processed

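The members and the gene lists were chosen with earlier results of these data known. Read counts per transcript were deposited by the authors, and the submitters' processing notes list STAR, Bowtie 0.12.7, CASAVA 1.8.2, edgeR and HOMER with build mm9 but no roles. No source used here says whether strand was counted, so overlapping and near-identical genes may share reads. The transcript with the highest total stood for each gene. Libraries were compared with edgeR 4.0.16 in R 4.3.3 (TMM, filterByExpr, Benjamini-Hochberg), and CPM used TMM-scaled library sizes. DESeq2 1.42.0, RLE factors, no filter and leaving out each library were alternatives. RLE factors moved the median log2 change of all genes from -0.05 to -0.174, a shift that applies to every log2 change given.

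HOMER called the H3K4me1 peaks and H3K27ac regions on 1 library against 1 input, per the file headers, at a false discovery rate of 0.01, a fold over input of 2 and a p-value of 0.0001. The score, the input signal in scaled tags and the fold ratios over input and local tags are the authors', per the file headers. The deposited H3K27me3 lists carry an unlabelled score and p-value, used at most for ranking, and no source used here names their caller.

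The deposited CpG tables give the methylated fraction and the read count per CpG. Methylated calls were fraction times coverage. CpGs with 5 to 100 reads in both libraries were used (83.2% of shared autosomal CpGs, median coverage 16 young and 19 old), which limits single members to the precision of their calls. No source used here states a correction for incomplete conversion. Transcript starts came from the positions of a second deposited table. Named members were the 8 largest losses and gains among called members with at least 5 CpGs, the 8 highest scores, the called members at gene starts and members near list genes. Named genes were the 10 largest rises and falls with a mean of at least 5 CPM, no overlap and no clone name, the 5 with most members and up to 4 per list by adjusted p. Genes beside called members were named after their values were seen. A few members these rules choose are not reported here. Scripts were tested on simulated data.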

Additional observations from a re-analysis of the deposited data

How the results depend on the processing

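The number of members was 7570 when a young peak or H3K27ac region within 1000 bp also removed a peak, 10388 with scores at or above the median of the old list, 3750 with no young H3K4me1 peak within 10 kb (this setting and the equal weighting of CpGs were chosen after seeing the data) and 24247 when 50% of the peak had to be covered. In these same 3 narrower sets of members, 558, 733 and 290 had lower and 180, 165 and 80 higher methylation, 814, 1296 and 424 were under young H3K27me3, and, for the latter 2, 178 and 69 of the nearest genes rose and 305 and 88 fell, with a median log2 change of 0.0407 and 0.104. Without a minimum difference 4930 members were lower and 2727 higher, and with 20 points also required at equal CpG weights 854 and 179. Other settings of coverage, window and CpG number kept the counts of lower members between 1124 and 1498, and the median difference was between -2.24 and -1.56 points under every setting tried. Of nearest genes, 436 rose with no filter on low counts. DESeq2 called 625 risen and 1163 fallen, and near members under young H3K27me3 55 and 463, where edgeR called 27 and 243, and 13 risen β-cell function genes in place of 8. DESeq2 called more of the nearest genes in general, and its shares over all genes are not given here. Its counts therefore cannot be set against the edgeR shares of 3.17% and 7.93%. The same holds for the counts with 1 library left out. The median log2 change of nearest genes was -0.0906 with RLE factors and -0.14 with DESeq2, where the medians of all genes were -0.17 and -0.32, and 0.00128 to 0.136 with 1 library left out. With 1 library left out, 15 to 1271 nearest genes rose and 113 to 1104 fell. Only members named for the largest losses, the largest gains and the highest scores were rechecked singly under the settings of coverage, window and CpG number. Of their values, 1 per member and setting, 78 kept their side of the threshold and 1, near Gm3716, lost it with a window of 250 bp. Members named at gene starts or near list genes, such as that of Gjd2, were not rechecked singly. No paired analysis was possible because the young columns carry no replicate number. The depth of the bisulfite libraries, with 10 CpGs in the median member, limits calls at CpG-poor members.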
